A study of Schizosaccharomyces pombe with 9 samples.

Results

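The genes described here lie side by side at one end of chromosome I of the fission yeast Schizosaccharomyces pombe. They are the 50 genes, of 5129 in the deposited count table, whose systematic names carry the clone names SPAC212, SPAC977, SPAPJ695, SPAC1F8 or SPAC11D3. 4 genes of clone SPAC1F8 (ght3, shu1, str3 and pdc101) were left out by the choice of members. In the RefSeq annotation (assembly ASM294v3), 49 of the 50 IDs were matched and 1, SPAC11D3.20, was not. These 49 members and the 4 left out make up the outermost 53 counted genes of that chromosome end without a gap, so the members run unbroken except for those 4.

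RNA was measured in 9 libraries of 3 genotypes, with 3 replicates each. They were tra1D, a deletion of tra1, then tra1-AA, an allele of the same gene whose sequence change is not described in the labels, and wild type (WT). tra1 encodes a subunit of the transcriptional co-activator complex SAGA. All cultures grew in the rich medium YES to mid-log phase, and RNA was selected by its poly(A) tail. Each genotype is represented by a single strain number, so a difference between genotypes cannot be told apart from any other difference between those strains. The titles of the tra1D and WT libraries mark them as re-analysed and those of tra1-AA carry no such mark, so that for tra1-AA this difference and the allele cannot be told apart. Nothing in the labels says that replicates came from separate cultures, and p-values therefore measure only the spread between these samples, which may be technical.

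Subtelomeres, the stretches next to the telomere repeats, are in fission yeast packed largely into heterochromatin, in which nucleosomes carry histone H3 methylation placed by Clr4 and bound by Swi6. Genes there are commonly expressed at low levels in growing cells, and many are raised in starvation, stress or meiosis. The segments nearest the telomeres are also near-duplicates of one another, so that several chromosome ends hold copies of the same genes.

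Library totals lay between 5738138 and 8101004 counts. Levels are given as CPM, the counts scaled to a common library size with TMM factors. 1 count was worth 0.126 to 0.168 CPM, and a count of 0 allows a level of up to 0.379 to 0.503 CPM depending on the library (3 counts; this covers counting error only). The deleted gene, tra1, had 5, 2 and 2 counts in tra1D and 608, 570 and 470 in tra1-AA, against 771, 704 and 561 in WT. Markers of the M mating type (7 genes) summed to 159 to 245 CPM in tra1D and 153 to 186 in tra1-AA, against 140 to 151 in WT. Markers of the P type (5 genes) summed to 610 to 639 in tra1D and 588 to 632 in tra1-AA, against 622 to 722 in WT, and no marker was without counts. The P sums were mostly sxa1, at a mean of 536 CPM in tra1D, 528 in tra1-AA and 596 in WT. In tra1D the M markers mam2, mfm2 and mam1 had log2 fold changes of 1.73, 1.06 and 0.79 (edgeR, BH-adjusted p = 0.00912, 0.00463 and 0.0175). The P marker map1 had 1.06 there (edgeR, BH-adjusted p = 0.0178). No other tested marker passed 0.05 in tra1D. In tra1-AA mam2 alone passed, also higher (edgeR, BH-adjusted p = 0.0487). The part of mating-type composition in the results below was not tested. RNA came from whole cultures, in which fewer cells expressing a gene and less RNA per cell cannot be told apart.

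Of the 50 members, 31 had enough counts to be tested (edgeR's filter on low counts, which kept 4913 of 5129 genes) and 19 did not. In tra1D 10 of the 31 were lower than in WT and 1 was higher, at a BH-adjusted p under 0.05 over all genes tested in edgeR's quasi-likelihood test. That is 32.3% lower, where 6.35% of all tested genes were lower and 5.17% higher. In tra1-AA 13 of the 31 were lower and 1 was higher, that is 41.9% lower, where 7.96% of all tested genes were lower and 7.94% higher. Rises made up 44.9% of all called genes in tra1D and 49.9% in tra1-AA, and 64.9% and 59.7% when libraries were scaled by their totals alone. The median log2 fold change of the tested members was -0.37 in tra1D and -0.58 in tra1-AA, and that of all tested genes was 0.00 and 0.01 in the same order of mutants. 24 of the 31 members lay below 0 in tra1D and 29 in tra1-AA. Without WT replicate 3, described below, 16 members were lower in tra1-AA and 10 in tra1D. The tested members are those with measurable RNA, and the counts say nothing of the other 19.

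Between the mutants no member was called by edgeR or by DESeq2 (0 of 31 in both), where edgeR called 0.0407% of all tested genes (2 of 4913). Among these 2 was tra1 itself, the gene deleted in tra1D (log2 fold change 7.44, edgeR, BH-adjusted p = 7.68e-10). At an unadjusted p under 0.05 stood 2 of the 31 members (6.45%) and 3.81% of all tested genes. 10 members were called in both mutants, 9 of them lower and 1 higher in both. 4 were called in tra1-AA alone (SPAC977.18, SPAC977.15, SPAC1F8.08 and SPAC11D3.10) and 1 in tra1D alone (SPAC11D3.02c). Since no difference between the mutants passed, these 5 are not shown to differ between tra1-AA and tra1D. Both comparisons use the same WT libraries.

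**Figure D1:**
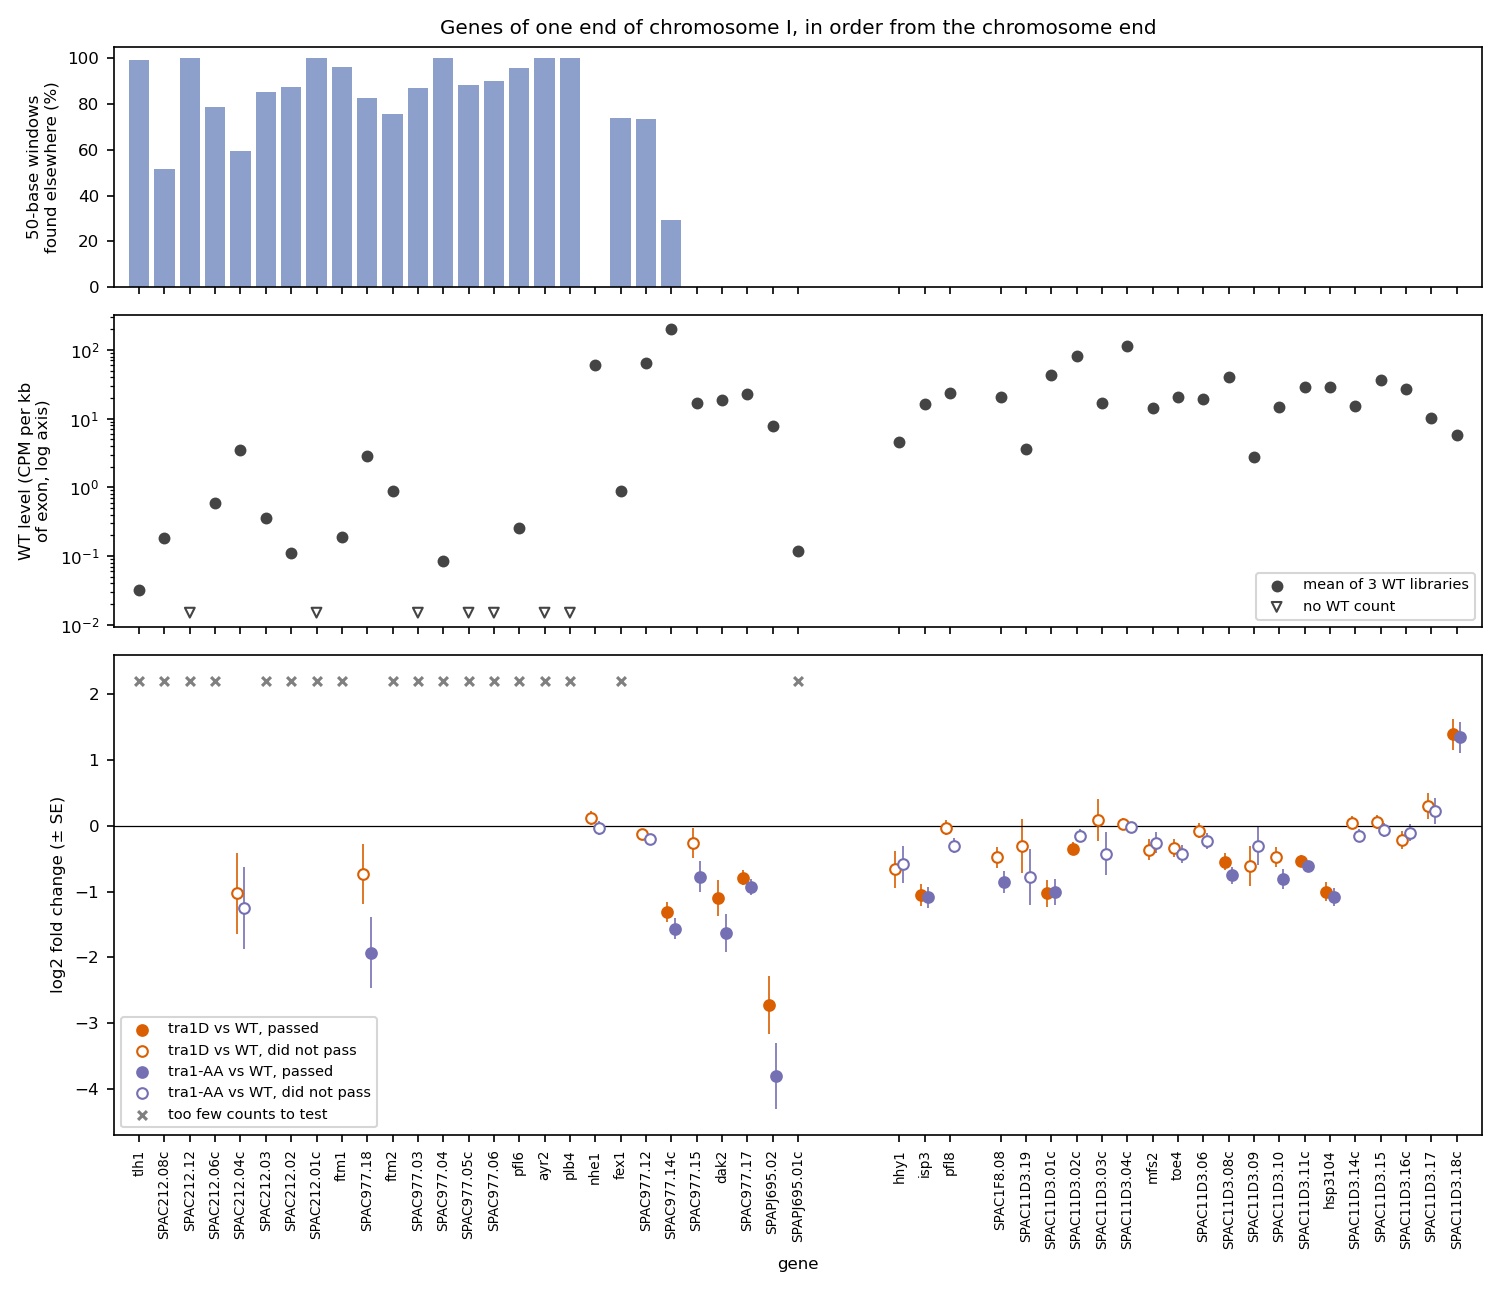
The 49 placed members in gene order from the chromosome end (gaps are the 4 genes left out), with the percent of 50-base windows found elsewhere (top), the WT level in CPM per kb of exon on a log axis (middle) and the log2 fold change with 1 SE in tra1D and tra1-AA against WT (bottom; filled points passed, crosses had too few counts). SPAPJ695.02 is the lowest point, at -2.72 in tra1D and -3.81 in tra1-AA, and SPAC11D3.18c, at the inner edge, is the only member that passed above 0.

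Levels differed along the stretch, as the plot by gene order shows for WT. The outermost 18 members, from tlh1 to plb4, had few or no counts in all genotypes. Their counts summed to 33, 28 and 48 in the tra1D libraries and to 14, 21 and 41 in the tra1-AA ones, against 66, 73 and 53 in WT, so that every mutant library lay below WT. 2 of the 18 were tested, and without these 2 (SPAC212.04c and SPAC977.18) the sums were 4, 14 and 22 in the tra1D libraries and 7, 5 and 13 in the tra1-AA ones, against 19, 20 and 12 in WT, so the ranges of all 3 groups overlapped. 6 of the 18 had no count in any library, namely the GPI-anchored protein gene SPAC212.12, SPAC212.01c, the methyltransferase gene SPAC977.03, SPAC977.05c, the dehydrogenase gene ayr2 and the phospholipase gene plb4. From nhe1 inward, 29 of the other 32 members were tested.

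The outermost 18 also consist largely of repeated sequence. Of the windows of 50 bases (the read length) in their exons, between 51.65% and 100% per gene occur a further time in ASM294v3. tlh1, a RecQ-type helicase gene next to the telomere, shares 99.1% of its windows with tlh2 on chromosome II. The other near-copies lie mainly on chromosome II and in the SPAC750 clone of chromosome I. Of all members 21 share a window with another place, and 17 of these were among the 19 not tested. How reads that match several places were counted was not stated, so these counts are uncertain, and little RNA cannot be told apart from reads that were not assigned. For tlh1 the ratio of summed counts was 1.83 in tra1D (7 against 4 in WT, 95% exact interval 0.466 to 8.55) and 1.82 in tra1-AA (7 against 4, interval 0.462 to 8.46). SPAC212.06c, a helicase-like gene, had a ratio of 1.05 in tra1D (interval 0.412 to 2.67) and 0.283 in tra1-AA (0.0507 to 1.07). ftm2, for a transmembrane protein, had 0.59 in tra1D (0.23 to 1.42) and 0.389 in tra1-AA (0.125 to 1.05), and pfl6, for a cell-surface glycoprotein, had 1.20 in tra1D (0.38 to 3.88) and 0.741 in tra1-AA (0.185 to 2.71). All of these intervals include 1. The other untested genes of the 18 (SPAC212.08c, SPAC212.03, SPAC212.02, ftm1, SPAC977.04 and SPAC977.06) had at most 7 counts over all 9 libraries each, as had SPAPJ695.01c further in, and SPAC11D3.20 had 9.

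SPAC212.04c and SPAC977.18, both for uncharacterised proteins, were the exceptions among the outermost genes in that they could be tested. SPAC977.18 had 5, 11 and 5 counts in tra1D and 5, 2 and 2 in tra1-AA, against 17, 14 and 6 in WT, or 0.726, 1.42 and 0.838 CPM in the tra1D libraries and 0.716, 0.2796 and 0.301 CPM in those of tra1-AA, against 2.15, 1.91 and 0.9505 CPM in WT. The tra1-AA libraries lay below all WT libraries, while tra1D and WT overlapped. Its log2 fold change was -0.74 (SE 0.45, edgeR, BH-adjusted p = 0.323) for tra1D and -1.93 (SE 0.54, edgeR, BH-adjusted p = 0.0319) for tra1-AA. The tra1-AA call was lost without replicate 1 or 2 of WT, and without replicate 2 or 3 of tra1-AA (log2 fold changes of -1.71, -1.85, -1.71 and -1.75), and 82.6% of its windows occur elsewhere. SPAC212.04c was called in neither, with -1.03 (SE 0.61, edgeR, BH-adjusted p = 0.31) for tra1D and -1.25 (SE 0.63, edgeR, BH-adjusted p = 0.202) for tra1-AA. With the replicate number as a block and only the tra1-AA and WT libraries, SPAC212.04c passed in tra1-AA, at -1.35 (BH-adjusted p = 0.0473).

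The enzyme genes held 12 tested members of 15, of which 4 were lower in tra1D and 5 in tra1-AA, with none higher. The aldo-keto reductase gene SPAC977.14c, from a family of NAD(P)H-dependent oxidoreductases, had the highest level per length of any member in WT, at 200.04 CPM per kb of exon. It had 91.8, 84.6 and 122 CPM in the tra1D libraries and 71.7, 86.5 and 91.2 CPM in those of tra1-AA, against 250, 199 and 289 CPM in WT. All 6 mutant libraries lay below the lowest WT library. Mean levels were 99.5 ± 19.98 CPM in tra1D, 83.2 ± 10.2 CPM in tra1-AA and 246 ± 45.3 CPM in WT (SD, n = 3 each), and the log2 fold changes were -1.31 (SE 0.15, edgeR, BH-adjusted p = 0.000237) for tra1D and -1.56 (SE 0.16, edgeR, BH-adjusted p = 7.68e-05) for tra1-AA. It shares 29.1% of its windows with SPAC750.01 on the same chromosome, which summed to 4 counts in tra1D and 2 in tra1-AA, against 155 in WT.

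Further in, a pair of divergent genes was lower in both mutants. dak2 encodes a dihydroxyacetone kinase, an enzyme of glycerol breakdown, and SPAC977.17 a membrane channel of the MIP family, which includes water and glycerol channels. dak2 had 22.8, 13.2 and 18.1 CPM in the tra1D libraries and 9.74, 11.3 and 16.4 CPM in those of tra1-AA, against 31.6, 29.1 and 56.1 CPM in WT. The mutants lay below all WT libraries, and WT replicate 3 stood above the other WT libraries. Its log2 fold change was -1.10 (SE 0.27, edgeR, BH-adjusted p = 0.0235) for tra1D and -1.63 (SE 0.29, edgeR, BH-adjusted p = 0.00307) for tra1-AA. The tra1D call was lost without WT replicate 3 (-0.75, BH-adjusted p = 0.0562), tra1D replicate 2 (-0.91) or tra1D replicate 3 (-1.11), while that in tra1-AA passed under every alternative run. SPAC977.17 had 43.9, 42.9 and 56.8 CPM in the tra1D libraries and 41.5, 42.2 and 45.5 CPM in those of tra1-AA, against 73.7, 81.3 and 92.2 CPM in WT. Here the groups of mutant libraries again lay below WT, with closer replicates, and the log2 fold change was -0.79 (SE 0.12, edgeR, BH-adjusted p = 0.00136) for tra1D and -0.93 (SE 0.12, edgeR, BH-adjusted p = 0.00038) for tra1-AA. The exons of the pair overlap on opposite strands over 21.4% of dak2 and 12.6% of SPAC977.17. The strand setting of the counting is not given, so reads from that overlap cannot be told apart.

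Between the aldo-keto reductase gene and dak2, SPAC977.15 encodes a protein of the dienelactone hydrolase family. It had 15.1, 10.1 and 13.7 CPM in the tra1D libraries and 9.31, 8.11 and 9.77 CPM in those of tra1-AA, against 13.8, 11.9 and 21.2 CPM in WT. The tra1-AA libraries lay below WT and those of tra1D overlapped with it. The log2 fold change was -0.26 (SE 0.23, edgeR, BH-adjusted p = 0.488) for tra1D and -0.77 (SE 0.24, edgeR, BH-adjusted p = 0.0443) for tra1-AA. The tra1-AA call was lost in 9 of 17 alternatives, among them without WT replicate 3, where it was -0.50 (BH-adjusted p = 0.137). In tra1D the value without WT replicate 3 was 0.01.

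hsp3104 encodes a ThiJ-domain protein annotated as a glyoxalase III, an enzyme that detoxifies methylglyoxal without glutathione. It had 16.4, 16.6 and 14.2 CPM in the tra1D libraries and 15.6, 14.7 and 14.4 CPM in those of tra1-AA, against 31.2, 26.7 and 37.1 CPM in WT. The mutant libraries were close to each other and well below WT, without overlap. Its log2 fold change was -0.9996 (SE 0.14, edgeR, BH-adjusted p = 0.000969) for tra1D and -1.08 (SE 0.14, edgeR, BH-adjusted p = 0.000497) for tra1-AA. hsp3104 overlaps SPAC11D3.14c on the other strand over 7.19% of its exon bases. SPAC11D3.10, of the NifS family of cysteine desulfurases, had 15.8, 15.8 and 21.3 CPM in the tra1D libraries and 14.03, 13.7 and 14.1 CPM in those of tra1-AA, against 27.6, 22.5 and 22.8 CPM in WT. All mutant libraries lay below WT, and the log2 fold change was -0.47 (SE 0.15, edgeR, BH-adjusted p = 0.0634) for tra1D and -0.80 (SE 0.15, edgeR, BH-adjusted p = 0.00533) for tra1-AA. The tra1D value passed with DESeq2 (-0.48, adjusted p = 0.0437) and without tra1D replicate 3 (-0.62, edgeR, BH-adjusted p = 0.0337).

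SPAC11D3.02c, for an acetyltransferase of the ELLA family, was called lower in tra1D alone, although the libraries of both mutants lay below all WT libraries. It averaged 43.2 ± 5.62 CPM in tra1D, 49.7 ± 0.5901 CPM in tra1-AA and 55.3 ± 2.74 CPM in WT, with -0.35 (SE 0.10, edgeR, BH-adjusted p = 0.0406) for tra1D and -0.15 (SE 0.10, edgeR, BH-adjusted p = 0.317) for tra1-AA. The tra1D call was lost in 10 of 16 alternatives. The other tested enzyme genes were called in neither mutant. They were the L-asparaginase gene SPAC977.12, the hydrolase gene hhy1, the SnoaL-like cyclase gene SPAC11D3.04c, the agmatinase gene SPAC11D3.09 and the oxoprolinase genes SPAC11D3.14c and SPAC11D3.15. SPAC11D3.04c, the most expressed uncalled member per length with 112 CPM per kb in WT, had 0.03 in tra1D and -0.02 in tra1-AA, and the sign in tra1-AA turned with library totals alone. SPAC977.12 had -0.12 in tra1D and -0.21 in tra1-AA (BH-adjusted p = 0.325 and 0.0898, edgeR), with 73.3% of its windows in SPBPB8B6.05c on chromosome II.

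Transporter and channel genes held 6 tested members of 7, of which 2 were lower and 1 was higher in each mutant. SPAC11D3.18c, annotated as a carboxylic acid transmembrane transporter, was the one member that rose. It had 18.7, 25.1 and 27.7 CPM in the tra1D libraries and 29.4, 23.3 and 16.4 CPM in those of tra1-AA, against 7.95, 8.049 and 11.4 CPM in WT. Every mutant library lay above all WT libraries, with a wide spread among the mutants. Mean levels were 23.8 ± 4.596 CPM in tra1D, 23.03 ± 6.49 CPM in tra1-AA and 9.14 ± 1.97 CPM in WT (SD, n = 3 each). The log2 fold change was 1.39 (SE 0.24, edgeR, BH-adjusted p = 0.0033) for tra1D and 1.35 (SE 0.24, edgeR, BH-adjusted p = 0.00332) for tra1-AA. It is the innermost member placed on the chromosome. Annotated noncoding genes on the other strand cover 100% of its exon bases. Since the strand setting of the counting is not given, their reads cannot be told apart from those of SPAC11D3.18c.

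Besides the MIP channel gene, the amino-acid permease gene SPAC11D3.08c fell. It averaged 62.1 ± 3.026 CPM in tra1D, 53.8 ± 5.695 CPM in tra1-AA and 90.6 ± 17.2 CPM in WT (SD, n = 3 each), with -0.55 (SE 0.13, edgeR, BH-adjusted p = 0.0183) for tra1D and -0.75 (SE 0.13, edgeR, BH-adjusted p = 0.00284) for tra1-AA. In tra1D the call was lost without WT replicate 1 or 2 and without tra1D replicate 1 or 2 (-0.54 to -0.45). nhe1, for a sodium/proton antiporter, was measured well and not called, at 0.13 in tra1D and -0.04 in tra1-AA, the sign in tra1-AA turning with library totals alone. The transporter genes mfs2 and SPAC11D3.06 were not called either. All exon bases of SPAC11D3.06 lie within the exons of toe4 on the other strand, so its counts are uncertain. fex1, for a fluoride export channel, was too low to test, with 10 counts in tra1D and 15 in tra1-AA, against 25 in WT.

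Of the 3 genes for DNA-binding transcription factors, 1 was lower in both mutants. SPAC11D3.11c, annotated as a truncated factor of the fungal zinc-cluster class, averaged 44.4 ± 3.168 CPM in tra1D, 41.97 ± 1.64 CPM in tra1-AA and 64.5 ± 4.099 CPM in WT (SD, n = 3 each), with -0.54 (SE 0.09, edgeR, BH-adjusted p = 0.00229) for tra1D and -0.62 (SE 0.09, edgeR, BH-adjusted p = 0.000799) for tra1-AA. toe4 had -0.34 (SE 0.14, edgeR, BH-adjusted p = 0.129) for tra1D and -0.43 (SE 0.14, edgeR, BH-adjusted p = 0.0525) for tra1-AA. In tra1-AA toe4 passed with DESeq2 (-0.44, adjusted p = 0.0269), RLE factors, a filter of at least 50 counts on average and the replicate number as a block (edgeR, BH-adjusted p = 0.049, 0.0482 and 0.0452). With the block and only the tra1-AA and WT libraries it was -0.42 (edgeR, BH-adjusted p = 0.0106), and without WT replicate 3 it passed in both mutants, at -0.51 in tra1D and -0.59 in tra1-AA. On the other strand SPAC11D3.06 overlaps 44.3% of the exon bases of toe4, and annotated noncoding genes overlap 32.3%. The counts of toe4 are therefore also uncertain. SPAC11D3.17 was not called.

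The largest change at this end belonged to SPAPJ695.02, which encodes an uncharacterised protein and lies just inside SPAC977.17. It had 10, 13 and 13 counts in tra1D and 5, 7 and 5 in tra1-AA, against 106, 122 and 29 in WT. As levels these were 1.45, 1.68 and 2.18 CPM in the tra1D libraries and 0.716, 0.979 and 0.752 CPM in those of tra1-AA, against 13.4, 16.6 and 4.59 CPM in WT. No mutant library reached the lowest WT library, and WT replicate 3 was well below the other WT libraries. Mean levels were 1.77 ± 0.371 CPM in tra1D, 0.815 ± 0.142 CPM in tra1-AA and 11.5 ± 6.23 CPM in WT (SD, n = 3 each). The log2 fold change was -2.72 (SE 0.44, edgeR, BH-adjusted p = 0.00222) for tra1D and -3.81 (SE 0.50, edgeR, BH-adjusted p = 0.000494) for tra1-AA, and both calls held under every alternative that kept the gene. In the authors' deposited tables its log2 fold change is -1.21 in tra1D and -1.44 in tra1-AA. DESeq2 run here on the deposited counts gave -2.73 in tra1D and -3.84 in tra1-AA. The difference was not particular to this gene, since the authors' values of the other called members also lay nearer 0 than those of edgeR. In tra1-AA, for example, they were -0.43 against -1.93 for SPAC977.18 and 0.95 against 1.35 for SPAC11D3.18c. The reason for these differences from the authors' values was not tested.

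isp3, for a protein of the outer layer of the spore wall, was the only member classed as a spore protein. The annotation of nhe1, described above, also names the prospore membrane. isp3 had 10.6, 8.55 and 8.21 CPM in the tra1D libraries and 9.88, 8.25 and 8.57 CPM in those of tra1-AA, against 17.5, 21.1 and 18.2 CPM in WT. The mutant libraries lay within a narrow band below WT. The log2 fold change was -1.05 (SE 0.16, edgeR, BH-adjusted p = 0.00165) for tra1D and -1.09 (SE 0.16, edgeR, BH-adjusted p = 0.00109) for tra1-AA. The 4 genes for cell-surface proteins held 1 that could be tested, the glycoprotein gene pfl8, which was not called, at -0.03 in tra1D and -0.30 in tra1-AA.

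Of the uncharacterised genes, 8 of 18 were tested, of which 2 were lower in tra1D and 4 in tra1-AA. SPAC11D3.01c encodes a protein of the Con-6 family, named after a gene of asexual sporulation in Neurospora crassa. It had 7.7, 11.7 and 8.55 CPM in the tra1D libraries and 9.88, 8.95 and 9.77 CPM in those of tra1-AA, against 14.6, 21.1 and 21.9 CPM in WT. Both mutants lay below all WT libraries, with -1.03 (SE 0.20, edgeR, BH-adjusted p = 0.0069) for tra1D and -1.0047 (SE 0.20, edgeR, BH-adjusted p = 0.00684) for tra1-AA. SPAC1F8.08 had 13.8, 13.1 and 17.9 CPM in the tra1D libraries and 9.45, 12.7 and 12.03 CPM in those of tra1-AA, against 20.8, 22.2 and 19.01 CPM in WT. Its mutant libraries were also all below WT, and the log2 fold change was -0.48 (SE 0.16, edgeR, BH-adjusted p = 0.0814) for tra1D and -0.86 (SE 0.17, edgeR, BH-adjusted p = 0.00607) for tra1-AA. SPAC11D3.19, SPAC11D3.03c and SPAC11D3.16c were not called in either mutant.

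**Figure D2:**
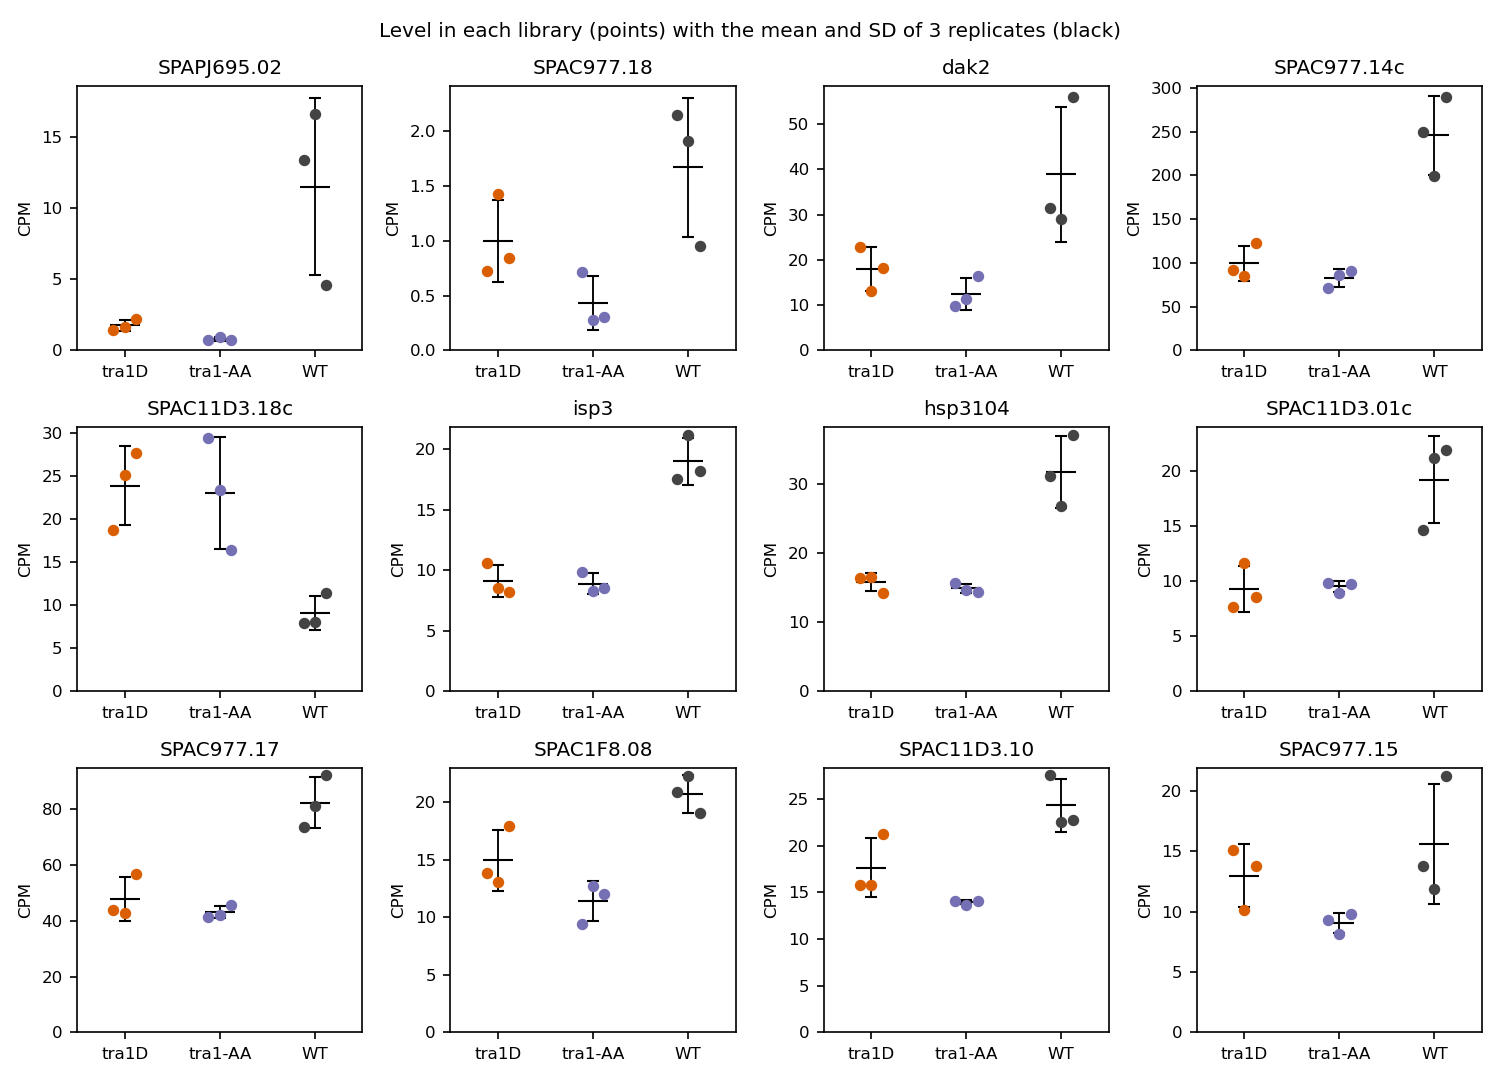
Level in CPM (vertical axes, linear, from 0) of the 12 called members with the largest log2 fold change against WT, in tra1D, tra1-AA and WT from left to right; points are libraries and the bars are the mean and SD of 3 replicates. For SPAC977.14c the tra1-AA points lie between 71.7 and 91.2 CPM and the WT points between 199 and 289 CPM; WT replicate 3 is the low WT point of SPAPJ695.02 and SPAC977.18 and the high one of dak2 and SPAC977.15.

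WT replicate 3 stood apart from the other WT libraries, at this chromosome end and over all genes. For 7 of the 31 tested members (22.6%) it lay more than 1.5-fold outside both other WT libraries, lower for SPAC977.18, SPAPJ695.02, hhy1, SPAC11D3.19 and SPAC11D3.03c and higher for SPAC977.15 and dak2. Every other library did so for 0 to 3 members. Over all 4913 tested genes WT replicate 3 did so for 2.65%, and the other libraries for 0.448% to 2.22%. The difference between these shares was not tested. Without it hhy1 and toe4 were also lower in tra1D (hhy1 -0.90, toe4 -0.51), while dak2 and SPAC11D3.02c lost their tra1D calls. In tra1-AA hhy1, toe4, SPAC11D3.19 and SPAC11D3.03c then passed (-0.82, -0.59, -1.16 and -0.76), while SPAC977.15 lost its call. The 16 tested members called in neither mutant had log2 fold changes of -1.03 to 0.30 in tra1D and -1.25 to 0.23 in tra1-AA.

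Calls were also made among the members without repeated sequence. Among the 28 members with no shared window, 27 were tested, of which 9 were lower and 1 higher in tra1D and 11 were lower and 1 higher in tra1-AA. By clone from the end inward, called falls numbered 0 of 1 tested in SPAC212 in both mutants, 3 in tra1D and 5 in tra1-AA of 7 in SPAC977, and 1 of 1 in SPAPJ695 in both. SPAC1F8 had 1 in tra1D and 2 in tra1-AA of 4, and SPAC11D3 had 5 of 18 in both mutants along with the 1 rise. Annotated noncoding genes lie on the other strand over some exon bases of 23 of the 31 tested members and 11 of the 15 called ones. They cover 100% of the exon bases of the called members SPAC11D3.01c, SPAC11D3.02c and SPAC11D3.18c. In the other called members with such an overlap they cover 21.1% (hsp3104) to 70.7% (SPAC977.15). Without the strand setting of the counting, reads of these noncoding genes cannot be told apart from those of the members. Per kb of exon, the median level of the tested members was 15.2 CPM in tra1D and 13.6 in tra1-AA, against 19.2 in WT, where the medians of all tested genes were 42.3, 42.9 and 41.8 in the same order.

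The bases before the annotated transcript starts show what the changed genes carry there. Printed are the 250 bases upstream of the start, 5′ to 3′ on the gene's strand, read from RefSeq ASM294v3 with that assembly's coordinates, since the build behind the counts is not given. The set holds the members called in both mutants with the largest change in each direction for which the annotation gives a 5′ leader; SPAPJ695.02 and dak2 have none annotated. Capitals mark exact matches to TATAAA, a form of the TATA box, and to TGACGT. The latter is a core of the cAMP-response element bound by Atf1 and Pcr1 (ACGTCA where it lies on the other strand). The windows are SPAC977.14c at chrI:60843-61092 (minus strand), isp3 at chrI:95540-95789 (plus), hsp3104 at chrI:129920-130169 (plus) and SPAC11D3.18c at chrI:146390-146639 (minus).
SPAC977.14c: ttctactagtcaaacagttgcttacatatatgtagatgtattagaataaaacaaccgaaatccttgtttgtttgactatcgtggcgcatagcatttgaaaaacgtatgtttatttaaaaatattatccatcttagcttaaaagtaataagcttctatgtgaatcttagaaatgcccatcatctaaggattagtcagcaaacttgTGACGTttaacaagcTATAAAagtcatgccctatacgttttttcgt
isp3: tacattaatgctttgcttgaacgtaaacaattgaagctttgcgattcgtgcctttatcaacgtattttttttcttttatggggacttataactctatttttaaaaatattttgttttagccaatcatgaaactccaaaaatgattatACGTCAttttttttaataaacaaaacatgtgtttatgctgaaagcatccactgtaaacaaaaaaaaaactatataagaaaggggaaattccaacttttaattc
hsp3104: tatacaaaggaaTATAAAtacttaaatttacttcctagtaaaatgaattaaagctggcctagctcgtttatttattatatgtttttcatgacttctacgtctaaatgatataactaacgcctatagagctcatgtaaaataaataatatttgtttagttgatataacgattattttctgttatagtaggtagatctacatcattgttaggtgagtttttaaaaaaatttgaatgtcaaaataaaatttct
SPAC11D3.18c: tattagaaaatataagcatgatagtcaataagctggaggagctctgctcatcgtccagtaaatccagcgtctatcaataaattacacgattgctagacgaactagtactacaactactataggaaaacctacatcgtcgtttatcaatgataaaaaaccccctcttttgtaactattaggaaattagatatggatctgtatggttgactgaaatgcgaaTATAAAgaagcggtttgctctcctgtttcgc

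SPAC977.14c has a TATAAA 31 bases before the start, next to a TGACGT 46 bases before it. isp3 has no TATAAA in this window and a TGACGT on the other strand 103 bases before the start. hsp3104 has a TATAAA far upstream, 238 bases before the start, and SPAC11D3.18c, which rose, has one at 31 bases. Only the exact TATAAA was sought, so other forms, such as the tatataag near the end of the isp3 window, were not counted. TATAAA was found on the gene's own strand in 12 of the 26 members with an annotated leader (46.2%), and in 28.1% of the 4512 windows of all counted protein-coding genes with one. On either strand the shares were 50% of members and 44.6% of all windows. By call, 6 of 11 called members and 6 of 14 tested uncalled members held TATAAA on their own strand. TGACGT on either strand was found in 3 of the 26 members (11.5%), and in 5.36% of all windows. On the gene's own strand it was found in 1 of the 26 (3.85%), and in 2.90% of all windows. The 3 with it on either strand are SPAC977.14c, isp3 and SPAC11D3.10, which are among the 11 called, and 0 of the 14 tested uncalled members held it. Its share among called and uncalled genes outside the members was not counted, and a link to the calls was not tested. The motifs do not overlap each other, and a match in these windows is a description of letters, not of a bound site.

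The other chromosome ends were set beside this one by taking the outermost 50 counted genes of each. At the left end of chromosome II, which holds clones SPBC1348 and SPBPB10D8, 11 of 33 tested genes were lower and 1 higher in tra1D, and 16 were lower and 0 higher in tra1-AA. At the other end of chromosome I 7 of 32 were lower and 2 higher in tra1D, and 10 were lower and 1 higher in tra1-AA. At the right end of chromosome II 3 of 38 were lower and 4 higher in tra1D, and 8 were lower and 3 higher in tra1-AA. At the left end of chromosome III 2 of 48 were lower and 2 higher in tra1D, and likewise 2 lower and 2 higher in tra1-AA. At its right end 4 of 48 were lower and 5 higher in tra1D, and 6 were lower and 4 higher in tra1-AA. As shares, lower genes made up 33.3% in tra1D and 48.5% in tra1-AA at the left end of chromosome II, and 21.9% in tra1D and 31.2% in tra1-AA at the other end of chromosome I. They made up 7.89% in tra1D and 21.1% in tra1-AA at the right end of chromosome II, 4.17% in both mutants at the left end of chromosome III, and 8.33% in tra1D and 12.5% in tra1-AA at its right end, where 6.35% of all tested genes were lower in tra1D and 7.96% in tra1-AA. The difference between ends was not tested.

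**Figure D3:**
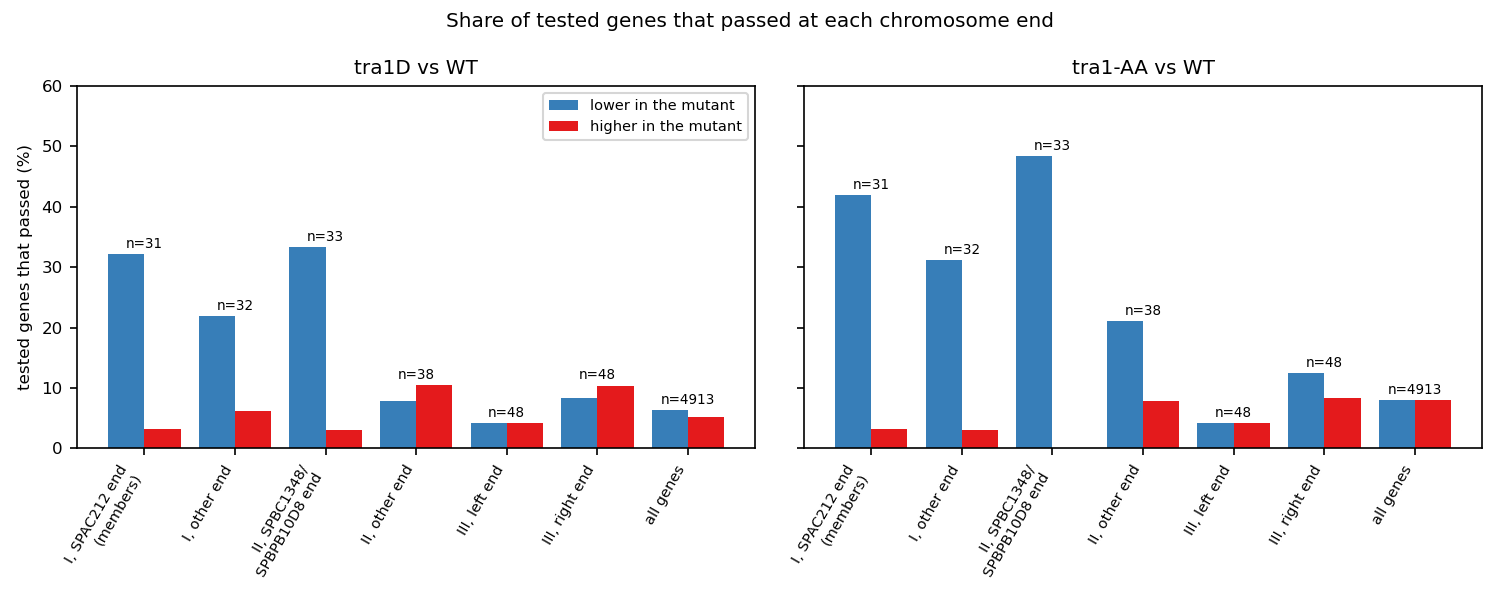
Share of tested genes called lower (blue) and higher (red) in tra1D (left) and tra1-AA (right) against WT (vertical axis, percent, from 0; n is the number tested), for the members, the outermost 50 counted genes of the 5 other chromosome ends and all tested genes. The members reach 32.3% lower in tra1D and 41.9% in tra1-AA, and all tested genes 6.35% in tra1D and 7.96% in tra1-AA.

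All 28 genes of a list of heterochromatin, shelterin and related factors were tested. 1 was called in tra1D (3.57%) and 2 were called in tra1-AA (7.14%), where 11.5% of all tested genes were called in either direction in tra1D and 15.9% in tra1-AA. set2, for a histone H3 lysine methyltransferase, was lower in both, with a log2 fold change of -0.21 in tra1D (edgeR, BH-adjusted p = 0.0322) and -0.28 in tra1-AA (BH-adjusted p = 0.00738). The tra1D call of set2 was lost in 8 of 16 alternatives (-0.24 to -0.14) and the tra1-AA call in 0 of 17. paf1, for a subunit of the Paf1 elongation complex, was higher in tra1-AA at 0.20 (BH-adjusted p = 0.0427), a call lost in 13 of 17 alternatives (0.17 to 0.22). The list's median was 0.04 in tra1D and 0.01 in tra1-AA. Of the 4 genes inside the stretch that are not members, str3, for a haem transporter, had 14, 7 and 7 counts in tra1D and 19, 18 and 12 in tra1-AA, against 22, 32 and 96 in WT. It was lower in tra1D (-2.39, edgeR, BH-adjusted p = 0.0319), with -1.61 in tra1-AA (BH-adjusted p = 0.0785). Its tra1D call was lost without WT replicate 3 (-1.37), without any 1 of the tra1D replicates (-2.79 to -2.13) and with only the tra1D and WT libraries (-2.39). ght3 and pdc101 were not called and shu1 had 5 counts in each mutant and 0 in WT.

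In the authors' deposited tables, 9 members were lower and 1 higher in tra1D among the 43 given an adjusted p, where 7.22% of the 5054 genes with one were lower and 4.06% higher. In the authors' deposited table for tra1-AA 12 were lower and 1 higher among 44, where 7.61% of 5057 genes were lower and 4.75% higher. The 43 and 44 include members too low to test in edgeR, so shares of them are not on the same set as those of the 31. SPAC11D3.02c in tra1D and SPAC977.18 in tra1-AA, called by edgeR, did not pass 0.05 in the authors' tables.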

How the data were processed

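Poly(A)-selected RNA of 9 S. pombe libraries (tra1D, tra1-AA and WT, 3 replicates each, grouped by title and genotype label) was read as single reads of 50 bases. According to the submitters' processing notes, bcl2fastq was used for demultiplexing, HISAT2 2.1.0 for alignment and HTSeq 0.9.1 for counting, and the authors compared each mutant with WT in DESeq2 1.18.1. The deposited count table holds whole-number read counts per gene, not normalised. The authors' deposited comparison tables give a log2 fold change with its log2 standard error. The authors' Wald score, p-value and adjusted p-value are deposited with them. Of these only fold changes and counts of genes by adjusted p are printed, named as the authors'. Not given in the sources used here: genome build, annotation and strand setting.

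From the counts, edgeR 4.0.16 (R 4.3.3) fitted all 9 libraries together by quasi-likelihood with TMM factors and filterByExpr (minimum count 10, total 15), adjusting by Benjamini-Hochberg at 0.05 over 4913 genes. Levels are CPM with the SD over 3 replicates; ratios of few counts have exact 95% intervals for counting error. Replicates differed from each other by a chi-square per degree of freedom of 8.41 to 28.8. In simulated data the fit recovered 100% of 107 planted 2-fold changes (tra1D vs WT, 4905 genes) and 96.9% of 98 (tra1-AA vs WT, 4899 genes). Of all calls there, 5.24% and 5.31% were false, in the same order. Planted genes were drawn from all genes kept by the filter. These shares therefore do not give the recovery at the lower levels of the members. Gene IDs were matched to RefSeq ASM294v3 (5107 of 5129). Windows of 50 bases and motifs, on both strands, were counted in Python 3.11.15, and figures drawn with matplotlib 3.10.9. No per-sample column was left unused (0), and 0 rows named no gene.

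The members and gene lists were chosen with earlier results of these data known. Named are all members called in any comparison, with values per library for the 12 largest changes. Also named are the 3 uncalled members with the highest level per kb and those too low to test. Of the list of heterochromatin, shelterin and related factors, up to 4 called genes are named. Same-numbered WT and tra1-AA libraries deviated together from their group means (r 0.109 to 0.357 across genes, all above 0.1). Same-numbered pairs with tra1D did not (-0.203 to -0.0103). Differently numbered WT and tra1-AA libraries had r of -0.351 to 0.085. However, tra1D replicate 2 with tra1-AA replicate 1, a differently numbered pair, reached 0.220. The pairing comes from the data, not the labels. Alternatives were DESeq2 1.42.0, RLE factors, library totals, other filters, only the groups compared, a replicate block and each replicate left out.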

Additional observations from a re-analysis of the deposited data

How the results depend on the processing

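Falls outnumbered rises under every alternative run. Members lower in tra1D numbered 8 to 11 and in tra1-AA 11 to 16, with 1 higher in both, and no member was called between the mutants. Leaving out each replicate gave 8 to 10 lower in tra1D and 11 to 16 in tra1-AA. With the replicate number as a block, 9 were lower in tra1D and 14 in tra1-AA, and 14 with only the tra1-AA and WT libraries, a fit chosen after seeing the data; the added calls were toe4 and, in that fit, SPAC212.04c, SPAC977.18 fell below its filter on low counts, and in the fit of all 9 libraries SPAC11D3.02c lost its tra1D call (-0.35, edgeR, BH-adjusted p = 0.0508). DESeq2 gave 11 and 14, and library totals alone 9 and 12, in tra1D and tra1-AA. With library totals, rises made up 64.9% of all called genes in tra1D and 59.7% in tra1-AA, against 44.9% and 49.9% with TMM. Of 36 values for named members, 27 kept direction and side of the threshold under every alternative. Signs turned with library totals for SPAC11D3.04c (0.0237) and nhe1 (0.01265) in tra1-AA. With a replicate left out, SPAC11D3.04c ranged in tra1-AA from -0.10 to 0.0461 (0.0264 without WT replicate 2, 0.0461 without tra1-AA replicate 1), nhe1 from -0.13 to 0.0427 (without tra1-AA replicate 3) and SPAC977.15 in tra1D from -0.42 to 0.0106 (without WT replicate 3). The cause was not tested. The members' median ranged from -0.52 to -0.30 in tra1D, -0.66 to -0.39 in tra1-AA and -0.21 to -0.08 between the mutants. Most of the outermost genes had too few counts to test, and low RNA and reads lost to repeated sequence cannot be told apart there.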

Other observations

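Copies of members at other places gave their own values. fex2, which shares 74.1% of the windows of the fluoride channel gene fex1, was not called, at 0.16 in tra1D and -0.43 in tra1-AA, while the ratio of fex1 counts was 0.419 in tra1D (95% exact interval 0.18 to 0.904, counting error only) and 0.622 in tra1-AA (0.305 to 1.23). fex1 had 4, 2 and 4 counts in tra1D and 8, 2 and 5 in tra1-AA, against 6, 6 and 13 in WT. The 13 were from WT replicate 3, and the intervals leave out the spread between replicates. SPBPB8B6.05c, the near-copy of the L-asparaginase gene SPAC977.12, had -0.42 in tra1D (edgeR, BH-adjusted p = 0.0394, lost in 6 of 16 alternatives, among them without WT replicate 3 at -0.29) and -0.27 in tra1-AA (BH-adjusted p = 0.139).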
